A study of Rattus norvegicus with 6 samples.

Results

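The genes described here are 10 components of cytokine signalling through Janus kinases and STAT transcription factors in the rat heart. They are the feedback inhibitors Socs1, Socs2, Socs3 and Cish, the transcription factors Stat3, Stat5a and Stat5b, the kinase Jak2, and the receptor subunits Osmr and Lifr. They were taken by gene name from the array files, where 11 non-control probes carry these names, among 30367 probes for 26307 genes or unnamed transcripts in all. Of the 10 genes, 9 (10 probes) passed the filter on dim probes and were tested among 17529 genes. Socs1 did not pass.

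The series holds 6 single-colour Agilent arrays of RNA from tissue labelled whole heart, with 3 AACO arrays and 3 control arrays. AACO stands for a Chinese medicine formula studied against chronic heart failure, and the labels do not spell out its letters. The AACO group received 0.386 µg/g once daily for 8 weeks and the control group the same amount of double-distilled water, and hearts were taken 24 h after the last dose. Per the series text, animals of both groups had TAC, which in heart research stands for transverse aortic constriction, a pressure overload model, so no unoperated heart was compared. The series text calls the animals mice, but each sample is labelled Rattus norvegicus and the probes carry positions on the rat build rn4, and the animals are taken here to be rats. Strain, sex and age are not given in the sources used here. The series text mentions different donors for each experiment, but no label ties an array to an animal. The p-values therefore cover only the spread among the 6 samples, which may in part be technical.

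Cytokines of the interleukin-6 family bind receptor complexes built around the shared subunit gp130, to which LIFR and OSMR are signalling partners. Janus kinases on the receptors then phosphorylate STAT3, while growth hormone, prolactin and several interleukins act mainly through JAK2 and STAT5. The STATs enter the nucleus and switch on, among other genes, those of the SOCS proteins and CISH, which block the receptors and kinases in a negative feedback loop. In the heart this pathway is known for protecting cardiomyocytes under stress and for the acute phase response.

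The 4 inhibitors are close relatives in domain structure, each with an SH2 domain and a C-terminal SOCS box, so the probe sequence decides which of them a spot reads. The probes of the family, as deposited, are shown for that reason, 5′ to 3′, with their positions on rn4; a second Cish probe is described with its values.

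Socs1 probe, chr10:4820384-4820443, plus strand: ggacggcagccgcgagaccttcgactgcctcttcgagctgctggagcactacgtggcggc
Socs2 probe, chr7:32605827-32605886, minus strand: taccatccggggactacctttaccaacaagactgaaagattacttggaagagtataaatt
Socs3 probe, chr10:107958636-107958695, minus strand: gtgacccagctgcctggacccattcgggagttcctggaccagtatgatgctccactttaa
Cish probe, chr8:112544581-112544640, plus strand: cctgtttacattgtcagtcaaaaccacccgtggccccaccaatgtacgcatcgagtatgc

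STAT dimers bind DNA at a short palindrome, and TTCNNNGAA, which is its own reverse complement, was searched for in the RefSeq promoters of the GRCr8 build (250 bases before to 50 after a gene's start). The table held 9 of the 10 genes, all but Socs2, and 2 of the 9 had at least 1 match, against 2970 of all 33469 promoters (8.87%). Cish had 4 matches, starting 241, 230, 136 and 119 bases before the start of the gene, and Socs1 had 1, at 196 bases. The promoters of Socs3, Stat3, Stat5a, Stat5b, Jak2, Osmr and Lifr held no match in this window, which says only that these letters are not there. The parts of the Cish and Socs1 promoters with the matches, in capitals, show the kind of site through which STATs are known to drive the feedback genes.

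Cish promoter, chr8:116850719-116850898, plus strand, GRCr8: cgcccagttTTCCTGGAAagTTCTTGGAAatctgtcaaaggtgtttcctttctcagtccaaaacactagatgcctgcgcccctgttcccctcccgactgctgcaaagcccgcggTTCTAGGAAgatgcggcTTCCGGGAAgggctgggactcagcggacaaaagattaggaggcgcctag
Socs1 promoter, chr10:5389338-5389426, plus strand, GRCr8: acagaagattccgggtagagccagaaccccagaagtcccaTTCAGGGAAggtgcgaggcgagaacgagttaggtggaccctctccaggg

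Of the 9 tested genes, Stat3 was the only one with a limma adjusted p under 0.05 between AACO and control arrays. It was 1.39-fold lower with AACO (log2 difference −0.47 ± 0.10 SE, limma adjusted p = 0.0331, 3 arrays per group). The oncostatin M receptor gene Osmr read lower and Stat5a higher with AACO on every array, and neither passed the adjusted threshold. None of the feedback inhibitors Socs2, Socs3 and Cish passed it, and Socs1 was not measured above background. A gene was called where its adjusted p, by Benjamini-Hochberg over all genes tested, was under 0.05. The count of 1 in 9 (11.1%) is close to the background, since 11.3% of all genes tested were called (6.31% higher, 4.95% lower). The groups did not overlap for 4 of the 9 genes, 2 lower and 2 higher, against 37.4% of all genes tested (15.9% lower, 21.5% higher). Unadjusted, limma's p was under 0.05 for 3 of the 9 and for 30.8% of all genes. These shares lie near the background, so the counts themselves say nothing particular about the 10 genes.

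All values below are log2 of a probe's signal minus the 75th percentile of log2 signal on the same array, so 0 means that a probe was as bright as that percentile. Differences are AACO minus control. The median difference of all genes tested was 0.04. Probes differ in brightness for reasons of sequence, so levels were compared between arrays and not between genes. The AACO arrays were all on 1 slide with 1 scan date, and the control arrays on another slide with another date. Slide, scan date and treatment therefore cannot be told apart in any comparison here. The share of spots well above background was 70.9% to 72.4% with AACO and 66.0% to 68.7% in controls, with 58717 non-control spots on each and no saturated spot. All 10 cardiomyocyte markers passed the filter, as the labelled tissue requires, and 0 of them were called. AACO replicates 1 and 2 stood apart by their atrial transcripts: Myl7, the atrial myosin light chain, read 4.83 and 6.26 there, against −1.06 on AACO replicate 3 and −2.91 to −1.51 on the control arrays. Sln, sarcolipin, read 1.39 and 3.85 there and −1.71 to −0.41 on the other 4 arrays. The other atrial markers tested were mixed. Myl4 differed by 0.00 between the groups, and Nppa read lowest on AACO replicate 1 (2.80, against 4.95 to 6.99 in controls). Dkk3 read highest on AACO replicates 1 and 2 (3.74 and 3.43), with 2.47 on AACO replicate 3 and 2.34 to 3.05 in controls.

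Both receptor subunits read without overlap between the groups, in opposite directions. Osmr, the signalling chain of the oncostatin M receptor, read −5.55, −6.15 and −5.56 on AACO replicates 1, 2 and 3, and −4.87, −5.22 and −4.84 on control replicates 1, 2 and 3. Every AACO array lay below every control array. The difference was −0.78 ± 0.20 (95% interval −1.26 to −0.29, limma adjusted p = 0.0588), a 1.71-fold lower signal that missed the threshold. The probe is dim: it was well above background on 2 of the 3 AACO arrays and on all 3 control arrays, and its raw signal ran from 30.4 to 59.9 units. Without scaling, the raw signals overlapped, with 32.3 on control replicate 2 against 45.4 on AACO replicate 3. Its probe lies at chr2:56080710-56080769 (minus strand, rn4).

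Lifr, the receptor of leukaemia inhibitory factor and the second chain for several relatives of interleukin-6, read −2.31, −2.74 and −2.96 with AACO and −3.14, −2.96 and −3.04 in controls. AACO replicate 3 and control replicate 2 nearly touched, and the control arrays lay close together. The difference was 0.37 ± 0.18 (95% interval −0.05 to 0.80, limma adjusted p = 0.206). The interval leaves room for a rise of up to 1.74-fold as well as for no change. The Lifr probe lies on the same chromosome as that of Osmr, at chr2:56477054-56477113 on the plus strand.

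Jak2, the kinase tied to growth hormone, erythropoietin and gp130 receptors, read −1.99, −2.03 and −2.20 with AACO and −2.23, −1.88 and −1.63 in controls. The groups overlapped, and the spread was wider in controls (SD 0.30) than with AACO (SD 0.11). The difference was −0.16 ± 0.17 (95% interval −0.56 to 0.25, limma adjusted p = 0.560). Its probe lies at chr1:232974483-232974542 (plus strand).

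Stat3, the transcription factor that carries the gp130 signal to the nucleus, read 1.17, 1.10 and 1.30 with AACO and 1.63, 1.71 and 1.65 in controls. All 3 AACO arrays lay below all 3 control arrays, and the control arrays agreed closely (SD 0.04, against 0.10 with AACO). The 95% interval of the difference ran from −0.71 to −0.24. Before scaling, the raw signals of this probe overlapped, with 3799, 4627 and 5277 units with AACO and 5445, 3948 and 4210 in controls, so the fall is one relative to the 75th percentile of each array. With no scaling the difference was 0.01 (limma adjusted p = 0.972), while the median of all genes then stood at 0.52. The gene rests on 1 spot per array, at chr10:89821145-89821204 (minus strand, rn4).

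**Figure D1:**
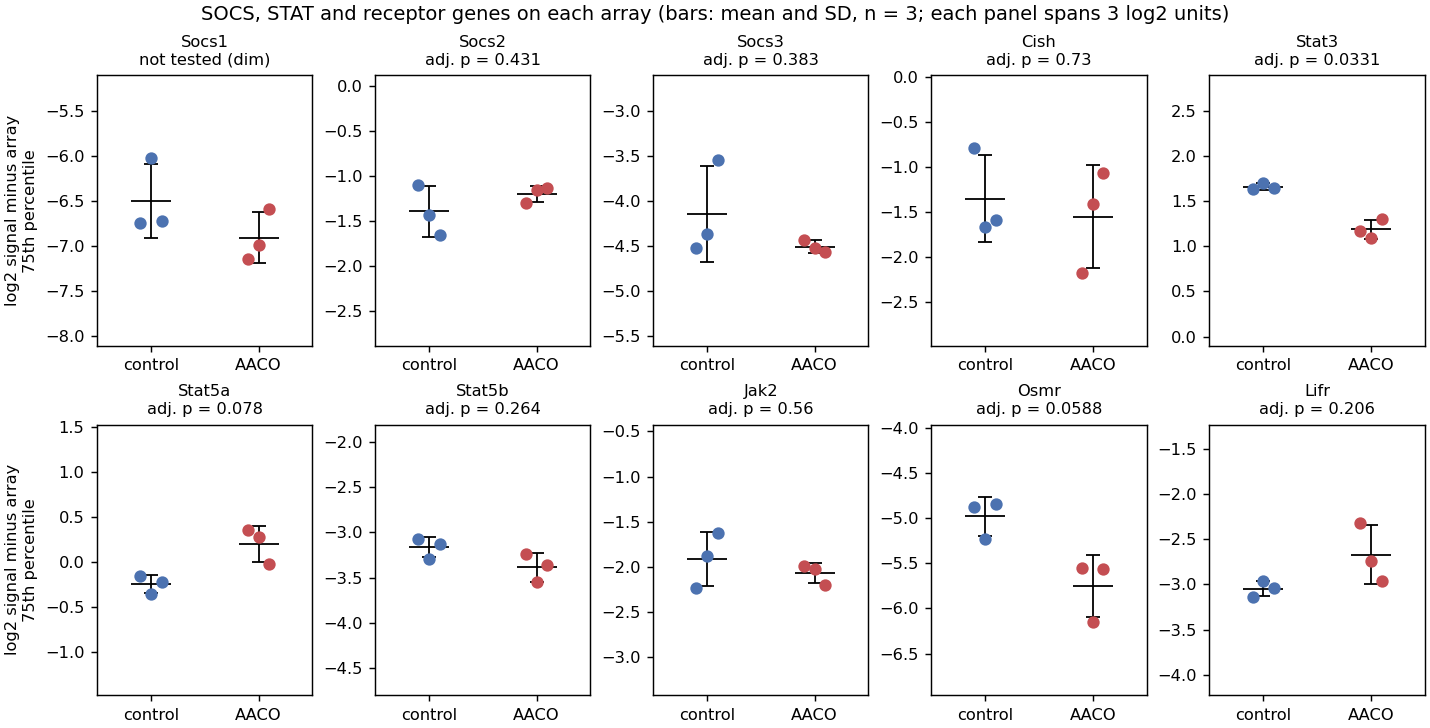
Scaled log2 signal of the 10 genes on each array (points), with the mean and SD of each group of 3 as bars; every panel spans 3 log2 units, with its own level, and Cish is shown by its brighter probe. The AACO points of Stat3 (1.10 to 1.30) lie below the control points (1.63 to 1.71), those of Osmr lie below and those of Stat5a and Lifr above their controls, and the other genes overlap.

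The call of Stat3 was lost in 5 of the 6 fits that left out 1 array, although the difference stayed between −0.53 and −0.43. The limma adjusted p was 0.0321 when AACO replicate 3 was left out, but 0.106 and 0.115 when AACO replicate 1 or 2 was. It was 0.0628, 0.0823 and 0.0929 when control replicate 1, 2 or 3 was left out. With each array's level of Myl7 and Sln as a covariate the difference was −0.34 and the adjusted p 0.386, and in that fit 0 of all genes were called, 2275 at an unadjusted p under 0.05, none of the 10 among them.

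Stat5a and Stat5b, paralogs that carry growth hormone and prolactin signals, had fitted differences of opposite sign. Stat5a read 0.36, 0.28 and −0.03 with AACO and −0.16, −0.35 and −0.23 in controls. Every AACO array lay above every control array, with AACO replicate 3 nearest to the controls. The difference was 0.45 ± 0.13 (95% interval 0.13 to 0.77, limma adjusted p = 0.0780), 1.36-fold higher, and missed the threshold. The Stat5a probe was printed on 10 spots, whose SD within an array was at most 0.11, which covers the precision of the spots and not the spread between animals or slides. Without AACO replicate 3 the difference was 0.56 and passed (limma adjusted p = 0.0375).

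Stat5b read −3.24, −3.55 and −3.37 with AACO and −3.08, −3.29 and −3.12 in controls, and the groups overlapped. The difference was −0.22 ± 0.12 (95% interval −0.52 to 0.07, limma adjusted p = 0.264). The interval excludes a rise of Stat5b as large as the fitted value of Stat5a. The 3 genes are neighbours: the Stat5a probe (chr10:89819609-89819668, plus strand) lies 1476 bases from that of Stat3, which is read from the opposite strand, and 97340 bases from that of Stat5b (chr10:89722209-89722268, minus strand). Within this cluster the adjacent probes of Stat3 and Stat5a thus had differences of opposite sign.

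Of the feedback inhibitors, Socs2, which restrains growth hormone signalling, read −1.30, −1.15 and −1.13 with AACO and −1.09, −1.43 and −1.65 in controls. The highest value was that of control replicate 1, so the groups overlapped. The difference was 0.20 ± 0.16 (95% interval −0.18 to 0.58, limma adjusted p = 0.431). This probe too had 10 spots per array, with an SD within arrays of at most 0.14, so that most of the spread in controls (SD 0.28) lay between arrays and not between spots.

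Socs3, the main brake on gp130 and STAT3, read −4.43, −4.52 and −4.57 with AACO and −4.52, −4.37 and −3.54 in controls. The AACO arrays agreed closely (SD 0.07), although the 2 spots of the probe lay 0.26 to 0.55 apart within them. On control replicate 1 the spots lay 0.92 apart. Control replicate 3 stood far above the other 5 arrays. Both of its spots were high, at −3.56 and −3.52. The difference was −0.36 ± 0.26 (95% interval −0.98 to 0.26, limma adjusted p = 0.383), and without control replicate 3 it shrank to −0.06.

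Cish, a target of STAT5 and inhibitor of the receptors that use it, had the largest SD of the 9 genes among AACO arrays (0.57), and in controls its SD of 0.49 was second to that of Socs3 (0.53). The brighter probe read −2.18, −1.41 and −1.06 with AACO and −0.79, −1.67 and −1.59 in controls, at chr8:112545330-112545389 (plus strand). AACO replicate 1 was the lowest of the 6 and control replicate 1 the highest. The probe whose sequence is shown above read −3.80, −3.22 and −2.81 with AACO and −2.96, −2.91 and −3.65 in controls. Both probes put AACO replicate 1 lowest and AACO replicate 3 highest among the AACO arrays, but they put different control arrays lowest. Their differences were −0.20 ± 0.35 (95% interval −1.05 to 0.65, limma adjusted p = 0.730) and −0.10 ± 0.31 (adjusted p = 0.853 over all probes). The interval of the brighter probe is the widest of the 9 genes and leaves room for a sizeable change in either direction.

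Socs1, the inhibitor best known for damping interferon signals, was not well above background on any of the 6 arrays. Its raw signal ran from 12.0 to 22.3 units with AACO and from 12.7 to 18.6 in controls, and no fold is given.

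**Figure D2:**
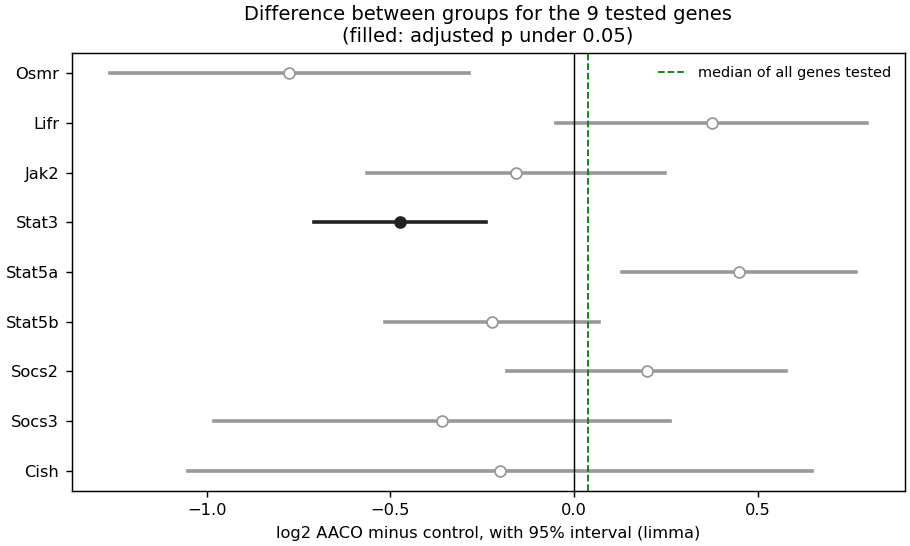
Difference between AACO and control (log2) for the 9 tested genes, with the 95% interval from limma as a line; the filled point marks the gene with an adjusted p under 0.05, and the dashed line the median of all genes tested (0.04). Intervals of Stat3 (−0.71 to −0.24), Osmr and Stat5a leave out 0, and that of Cish is the widest.

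The 5 named genes whose values over the 6 arrays, centred on each gene's mean, lay nearest to those of Stat3 were Chst1, Arap1, Mzt2b, Daglb and Acad9. Their root mean square differences from Stat3 were 0.038 to 0.048, and their own differences between groups −0.48 to −0.43.

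The list of ligands was described by the same fit, as background to the receptors. Of 15 genes on the list 8 were tested, and 1 rose and 1 fell, against 6.31% and 4.95% of all genes tested. Ctf1, which encodes cardiotrophin-1, a ligand of gp130 and LIFR, rose 1.82-fold (0.86 ± 0.15, limma adjusted p = 0.0222): it read −2.81 to −2.27 with AACO and −3.41 to −3.37 in controls. Lif, the leukaemia inhibitory factor gene, fell 1.40-fold (−0.49 ± 0.12, adjusted p = 0.0493), with −5.38 to −5.16 against −4.92 to −4.66. The fitted differences of these ligands of the same receptor thus had opposite signs. The Lif probe is dim, at percentile 13.2 of mean level among the genes tested. The signals of Il10 and Il11 were lower with AACO by values that missed the threshold (adjusted p = 0.0873 and 0.0910), and Il6 did not pass the filter on dim probes. The median of the list was −0.05. The rise of Ctf1 kept its sign in 18 of 18 alternatives and its call in 13, and Lif kept its sign in 18 and its call in 8.

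Among the other cytokine receptor subunits 13 genes were tested, and 2 fell (15.4%, against 4.95% of all genes) and 0 rose. By limma, 0 were called lower with the atrial covariate or when AACO replicate 1 or 2 was left out, and 1 when control replicate 2 or 3 was left out. Il4r, the interleukin-4 receptor, fell 1.64-fold (−0.72 ± 0.10, limma adjusted p = 0.0135): it read −2.03 to −1.83 with AACO and −1.30 to −1.16 in controls. Il13ra1, its partner for interleukin-13, fell 1.39-fold (−0.47 ± 0.09, adjusted p = 0.0297), with −1.58 to −1.54 against −1.17 to −0.99. The other probes of these genes did not move with them, at −0.05 and 0.05, and with the mean over probes in place of the brightest, 0 of the 13 were called by limma. Il6st, which encodes gp130 itself and is named here after its value was seen, differed by −0.14 ± 0.12 (adjusted p = 0.464). Ghr, the growth hormone receptor, differed by 0.25 ± 0.11 (limma adjusted p = 0.178). Its other probes differed by 0.58 and 0.66 (limma adjusted p = 0.0906 and 0.116 over all probes). Ifngr1, an interferon gamma receptor chain, differed by −0.25 ± 0.11 (adjusted p = 0.184). In 11 of the 13 the sign was negative, and the list median was −0.15.

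None of the 4 tested genes described here among the other Janus kinases and STATs was called by limma, and 0 had an unadjusted p under 0.05. Stat6, the interleukin-4 factor, differed by −0.24 ± 0.10 (adjusted p = 0.163). Jak1, Jak3 and Stat2 differed by −0.19, −0.02 and 0.00, and the list median was −0.10.

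Of the 14 tested genes for other inhibitors, 1 was called higher and 1 fell, near the background of 6.31% and 4.95% of all genes, and 0 were called by limma when AACO replicate 1 or 2 was left out. Socs6, a less studied member of the SOCS family, was well above background on all 3 AACO arrays and on no control array, so it passed the filter only through the group where it was high. Its call rests on control signals that were not well above background, so the fitted difference and its p are not given. As a bound, its signal with AACO was at least 1.49-fold higher. With a filter that asks for all arrays, 0 genes of the list were called higher. In that bound each control array stands at its dimmest probe well above background, or at Socs6's own signal if that was higher. Socs7, another member, fell 2.05-fold (−1.03 ± 0.15, adjusted p = 0.0156), while its other probe differed by 0.21. Ptpn6, the phosphatase SHP-1 of blood cells, differed by −0.41 ± 0.10 (adjusted p = 0.0502) and Pias3, an inhibitor of STAT3, by 0.43 ± 0.12 (adjusted p = 0.0626). The list median was −0.06.

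Genes that STAT3 is known to switch on, together with acute phase genes, included several that fell. Of 28 on the array 24 were tested; 7 fell (29.2%) and 0 rose, against 4.95% of all genes that were called lower, and the list median was −0.43. Many factors besides STAT3 drive these genes. They are given by their values, and no test was made of the list.

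Myc, the growth-promoting transcription factor, fell 3.51-fold (−1.81 ± 0.24, limma adjusted p = 0.0119). It read −2.54, −2.10 and −2.18 with AACO and −0.91, −0.04 and −0.43 in controls. Mt2A, a metallothionein induced by cytokines and glucocorticoids, fell 3.76-fold (−1.91 ± 0.33, adjusted p = 0.0219): its values were 1.27, 1.37 and 2.41 against 3.69, 3.84 and 3.25. AACO replicate 3 was nearest to the controls for Mt2A, but not for Myc. A second Mt2A probe differed by −1.34.

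Cebpd and Cebpb, transcription factors of the acute phase response, both fell. Cebpd fell 2.66-fold (−1.41 ± 0.26, limma adjusted p = 0.0256), and Cebpb read 1.33 to 1.98 with AACO and 2.60 to 2.90 in controls (adjusted p = 0.0292). Ccl2, the monocyte-attracting chemokine, fell 2.66-fold (adjusted p = 0.0165), with −2.40 to −1.86 against −1.05 to −0.43. Tnfrsf12a, the receptor of the cytokine TWEAK, fell 2.64-fold (adjusted p = 0.0165), with −0.15 to 0.63 against 1.46 to 1.66. Bcl2l1, which encodes the survival protein BCL-XL, fell 1.58-fold (adjusted p = 0.0404), and its 3 other probes differed by −0.75 to −0.28. For each of the 7 genes the groups did not overlap.

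Other genes of the list went the other way, hardly differed, or read lower without being called. Pim1 and Bcl3, textbook STAT3 targets named here after their values were seen, differed by −0.13 (limma adjusted p = 0.643) and −0.34 (adjusted p = 0.303). Ier3, Nfil3, Hp and Junb, named on the same terms, had positive differences of 0.39 to 0.83 that missed the threshold. Lcn2 and Mcl1, also named after their values were seen, read lower without overlap (−0.51 and −0.31, limma adjusted p = 0.0828 and 0.145). Serpina3n, Timp1, Klf4 and Reg3b, named likewise, differed by −1.02, −0.74, −0.67 and −0.66, with groups that overlapped (adjusted p of 0.202 or more). In all 18 of the 24 had a negative sign.

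**Figure D3:**
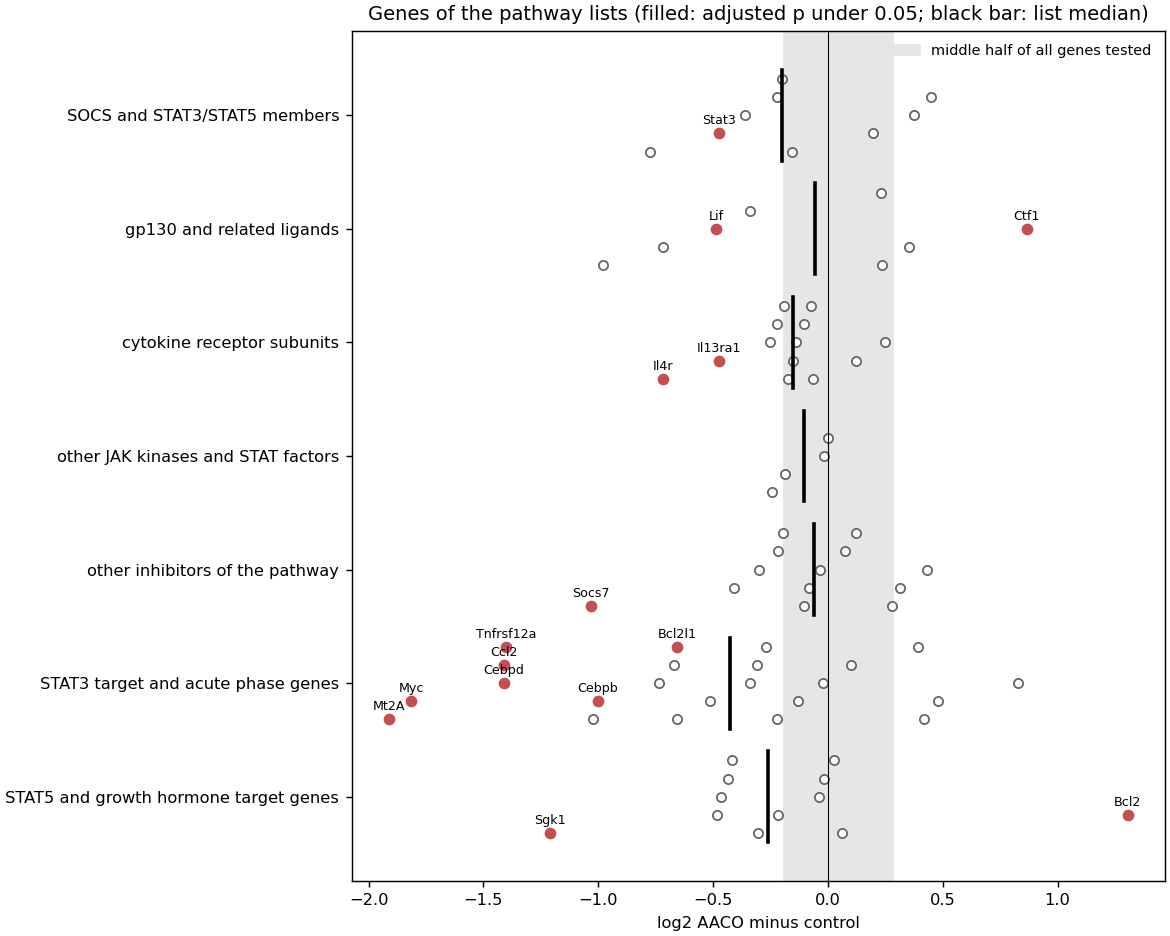
Difference between AACO and control (log2) for each tested gene of the pathway lists; filled and named points had a limma adjusted p under 0.05, black bars are list medians, and the grey band holds the middle 50% of all genes tested. Socs6 and Il1r1, dim on all control arrays, are not drawn. The 7 filled points of the STAT3 target list all lie below −0.6, while the medians of the other lists lie between −0.26 and −0.05.

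The number of STAT3 target genes called lower moved with single arrays. It was 1 and 0 when AACO replicate 1 or 2 was left out, and 3 when control replicate 2 or 3 was left out. It was also 0 with the level of Myl7 and Sln as a covariate, where 8 of the 24 had an unadjusted p under 0.05, up or down. The list median stayed between −0.51 and −0.30 in every alternative but 1, the fit with no scaling, where it was 0.06.

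Of the 12 genes tested among STAT5 and growth hormone targets, 1 rose and 1 fell, against 6.31% and 4.95% of all genes. Bcl2, the survival gene, rose 2.47-fold (1.31 ± 0.31, limma adjusted p = 0.0486), with −2.73 to −1.79 against −4.14 to −3.37. Sgk1, a kinase also induced by glucocorticoids, fell 2.31-fold (−1.21 ± 0.28, adjusted p = 0.0426), with −1.94 to −0.97 against −0.54 to 0.08. In the 6 limma fits without 1 array, 0 genes of the list were called higher in each, and 0 were called lower in all but the fit without AACO replicate 3, where 2 were. Pparg and Ccnd2 differed by −0.48 (adjusted p = 0.168) and −0.47 (adjusted p = 0.186). Cdkn1a, named after its values were seen, differed by 0.03 by its brightest probe, which the counts use. Its other probe differed by −1.52 (limma adjusted p = 0.0396 over all probes). The list median was −0.26.

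Markers of other cell types are given beside these lists, and their direction differed from list to list. Of 12 macrophage markers, all tested, 9 fell and 0 rose, with a median of −1.14; Mrc1 and Adgre1, surface proteins of resident macrophages, differed by −2.45 and −1.50 (limma adjusted p = 0.00697 and 0.00829). The summed level of the 12, in units of each array's 75th percentile, was 14.9 to 16.1 with AACO and 24.9 to 37.2 in controls. Of 8 neutrophil markers 4 were tested and 1 fell, Retnlg (−1.60), with a summed level of 0.363 to 0.915 against 1.14 to 1.72, and S100a8 differed by −1.59 (adjusted p = 0.0525). None of the 8 fibroblast and 8 endothelial markers was called, though 7 of the endothelial ones were negative (median −0.26). Of 6 smooth muscle and pericyte markers 0 were called, while 5 were higher without overlap and at an unadjusted limma p under 0.05 (median 0.61). Single markers were called in other lists, whose members did not all share the sign. Fabp4 of the adipocyte list (−0.66) was lower with AACO, where 1 of 3 tested genes was positive. That gene, Adipoq, was well above background on only 2 AACO arrays and 1 control array. It read −2.97 on AACO replicate 2, against −7.43 and −7.42 on AACO replicates 1 and 3. Cd4 of the T and NK cell list (−1.05) was lower, where 6 of 8 were positive (median 0.17). Among the positive genes, Cd8a was well above background on all 3 AACO arrays and on no control array. It passed the filter only through the group where it was high, so its sign is not a measured rise. Alas2 of the red cell list (−1.33) was lower, where 1 of 3 was positive. That gene, Hbb, differed by 0.05 by its brightest probe. Its other probe differed by −1.30 (limma adjusted p = 0.0297 over all probes). Irx4 of the ventricular list was higher (0.99), where 2 of 5 were negative (median 0.05), among them Kcne1 (−1.41, limma adjusted p = 0.0589). None of the 4 B cell markers passed the filter. In whole tissue, fewer cells of a type and less RNA per cell cannot be told apart, and the part of any of these cell types in the values of Stat3, Osmr, Il4r, Ptpn6, Ccl2 and the other genes was not tested.

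**Figure D4:**
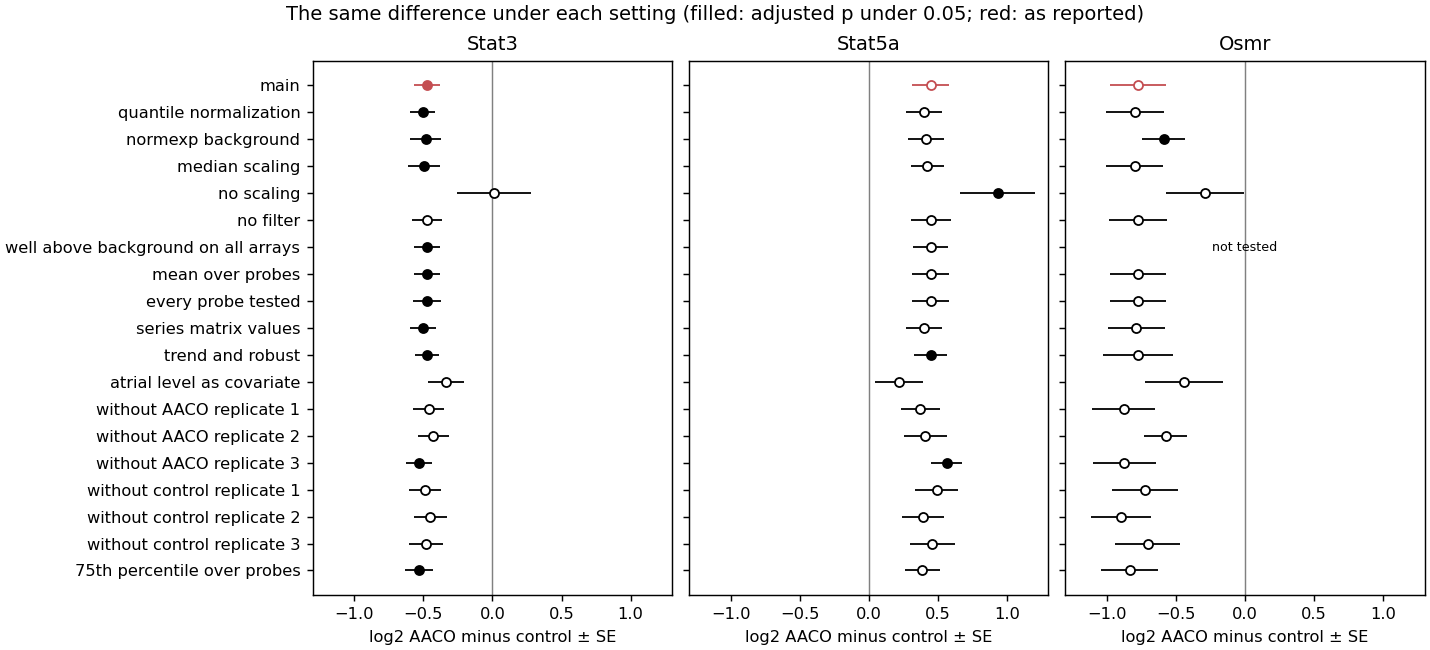
Difference between AACO and control (log2, with SE) of Stat3, Stat5a and Osmr as reported (red) and under each alternative (black); filled points had a limma adjusted p under 0.05. Stat3 lies near −0.5 throughout except with no scaling (0.01) and with the atrial covariate (−0.34), Stat5a was above 0 and Osmr below 0 in every fit, and Osmr was not tested where a probe had to be well above background on all arrays.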

How the data were processed

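Per the file headers, the arrays were read with Agilent Feature Extraction 10.7.1.1; the deposited intensity used is each spot's background-corrected processed signal, not scaled between arrays. The authors also deposited a table of log2 values, with unstated processing. Its columns correlated with log2 of the processed signal across probes at 0.99846 to 0.99998 and all had a median of 6.77, so it was read on the same scale and in the same direction, with the centring method unknown, and served as an alternative.

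Control spots and spots marked as outliers were left out, and spots of a probe were averaged. Values were log2 signal minus the array's 75th percentile over non-control spots. Of 30357 probes with a value on every array, 20112 passed the filter (well above background on 3 or more of the 6 arrays). Gene names came from RefSeq accessions for 18349 probes (a name other than the file's for 3521), from the file for 2850, and 9168 probes had none. A gene was read by its brightest kept probe. Groups were compared with limma 3.58.1 in R 4.3.3 (lmFit, then eBayes; p two-sided, adjusted by Benjamini-Hochberg over 17529 genes). The number of arrays limits the precision. Replicate numbers follow the order of the samples in the series.

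Named were all 10 genes, and in each pathway list the 4 tested genes of smallest p and every gene called. Also named were the 5 genes most like the one of smallest p. In some marker lists the 2 genes of smallest p were named, in others a called gene. No fibroblast, endothelial or smooth muscle and pericyte marker was named. Further genes of the lists were named after their values were seen. The genes and lists were chosen with earlier results of these data known, and some genes of the pathway lists are not reported here and left out of the lists' counts. Probe positions are those of the array files (rn4); whether they lie in coding sequence or UTRs was not analysed here.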

Additional observations from a re-analysis of the deposited data

How the results depend on the processing

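Each result was recomputed under 18 alternatives, 1 of them (the 75th percentile over probes in place of spots) added after seeing the data. The call of Stat3 was kept in 10. It was lost, with the sign reversed, with no scaling (0.0117), and with the same sign with no filter on dim probes (−0.47, limma adjusted p = 0.0531), with the atrial level as a covariate (−0.34) and in 5 of 6 fits without 1 array (range of all 6: −0.53 to −0.43). The number of the 10 genes called, 1 as reported, was 2 with normexp background correction, with no scaling and with eBayes trend and robust, 0 with no filter and with the covariate, and 0 to 2 without 1 array. The 7 STAT3 target genes called lower became 0 with the covariate and 0 to 8 without 1 array. Other signs that reversed, none of them called, were those of Cish (0.28 with no scaling, 0.24 with the covariate, 0.11 without AACO replicate 1, 0.08 without control replicate 1; range without 1 array −0.45 to 0.11), Jak2 (0.33), Socs3 (0.13) and Stat5b (0.26), these 3 with no scaling. Calls were gained by Osmr with normexp, by Stat5a with no scaling, with trend and robust and without AACO replicate 3, and by Lifr with no scaling. Over all genes 1106 were called higher and 867 lower (56.1% higher); the counts were 773 and 1529 with normexp (33.6%), 780 and 1416 with no filter (35.5%), 874 and 1041 with the percentile over probes (45.6%), 5487 and 232 with no scaling (95.9%), and, leaving out AACO replicate 1, AACO replicate 2 or control replicate 3, 179 and 227, 108 and 149, and 325 and 303. The causes were not tested. No paired analysis was possible because the replicate numbers follow sample order and pair no arrays. Dim probes (Osmr, Socs3 and Lif, and Socs1 below background) limit what could be measured.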

Other observations

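Ratios between probes of the same array do not depend on the scaling between arrays. The pairs given here were chosen after their opposite differences were seen, so the direction and the separation of the groups follow from that choice, and the values are a description with no test. The log2 ratio of Stat5a to Stat3, probes 1476 bases apart, was −0.81, −0.82 and −1.33 with AACO and −1.79, −2.06 and −1.87 in controls. The ratio of Stat5a to Stat5b was 3.59, 3.83 and 3.34 with AACO and 2.92, 2.94 and 2.90 in controls. For both ratios AACO replicate 3 was the AACO array nearest to the controls.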
